A study of Sus scrofa with 30 samples.

Results

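The genes described here carry out 2 linked tasks of mucosal immunity. JCHAIN and PIGR serve the transport of immunoglobulins across epithelia, and CD74, SLA-DRA, SLA-DRB1, SLA-DQA1 and SLA-DQB1 serve the presentation of antigen on major histocompatibility complex (MHC) class II, called swine leukocyte antigen (SLA) class II in the pig. Members were the probe sets whose only platform gene symbol is one of these 7, which gave 7 of 6765 named genes and 10 of 24123 probe sets. JCHAIN, CD74, SLA-DRA, SLA-DQA1 and SLA-DQB1 had 1 probe set each, PIGR had 2 and SLA-DRB1 had 3. A further 3 probe sets that carry the SLA-DRB1 symbol together with another symbol were left out.

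The study behind the arrays concerns inverted teats, a heritable defect of pigs in which the teat does not protrude. Teats were taken at slaughter (mean end weight 110 kg) and divided into an epithelial and a mesenchymal piece, and each piece was measured on an Affymetrix Porcine Genome Array. For each tissue the 3 groups were inverted teats of 5 affected animals, normal teats of the same 5 affected animals, and normal teats of 5 non-affected animals, 30 arrays in all. Affected animals were 963, 964, 1037, 1059 and 1103, and non-affected animals were 950, 957, 1040, 1058 and 1109. By breed, 963 and 957 were German Landrace, 6 animals were Large White x German Landrace, and the pair 1103 and 1109 was Pietrain x (Large White x German Landrace).

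JCHAIN encodes the small polypeptide that plasma cells join to dimeric IgA and pentameric IgM. PIGR, the polymeric immunoglobulin receptor, sits on the basolateral side of glandular epithelial cells, binds the joined immunoglobulin and carries it to the lumen, in the mammary gland into colostrum and milk. Class II molecules are pairs of an alpha chain (SLA-DRA, SLA-DQA1) and a beta chain (SLA-DRB1, SLA-DQB1). CD74, the invariant chain, fills their groove during assembly and routes them to endosomes, where proteases cut it away. Dendritic cells, macrophages and B cells carry class II constantly, and interferon gamma can induce it in other cells.

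All values are log2 probe set summaries as deposited, and array medians lay between 5.71 and 6.04. The 30th percentile of an array, used as the limit below which a probe set was called low, lay between 4.49 and 4.84. The tissue labels were set beside markers from lists chosen with earlier results of these data known, so this is no independent check. In normal teats 9 of 15 luminal epithelial genes were higher and 1 was lower in epithelial tissue, while 7 of 7 adipocyte and 11 of 11 skeletal muscle genes were lower there (limma, adjusted p at most 0.05), where 33.5% of all tested probe sets were called, 2360 higher and 3762 lower. In inverted teats, where 12.4% were called, 145 higher and 1970 lower, 0 of 14 luminal, 0 of 6 keratinocyte and 0 of 11 skeletal muscle genes were called, with a luminal median of 0.28. There 7 of 7 adipocyte genes were lower in epithelial tissue, and 0 with quantile normalization or without animal 1037, 1059 or 1103. In inverted teats the tissue labels thus rest on fewer marker genes. In normal teats 3 luminal genes were higher without animal 1059, 5 without 1103 and 5 without 1109, and the 1 lower call was lost without 1040, 1058, 1103 or 1109. The mean of the luminal keratins KRT8, KRT18 and KRT19 lay between 9.27 and 10.66 on 14 epithelial arrays and at 6.75 on the array of the inverted teat of animal 1103, which stands apart. In mesenchymal tissue the same mean ranged from 2.38 to 11.14, and in animals 950, 957, 963 and 964 it was at least 9.15, so mesenchymal pieces of these animals carried luminal keratins at levels near those of the epithelial pieces. The mesenchymal piece of the inverted teat of animal 1059 did so too, at 9.65. In the inverted teat of animal 1103 the mesenchymal piece measured 8.76, above the 6.75 of the epithelial piece. The luminal keratins of this pair thus go against its tissue labels. Smaller reversals occurred in the normal teats of animals 957 and 964 and the inverted teats of 964 and 1059. In bulk tissue, fewer cells of a type and less RNA per cell cannot be told apart.

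The class II genes were present on every array. CD74 ranged from 9.28 to 12.06 over the 30 arrays, SLA-DRA from 9.48 to 11.48, SLA-DRB1 from 8.83 to 10.99, SLA-DQA1 from 8.92 to 11.16 and SLA-DQB1 from 8.75 to 10.73. JCHAIN ranged from 3.97 to 8.11 and was above the array's 30th percentile on 29 of 30 arrays. PIGR ranged from 0.88 to 6.97 and passed that limit on 14 of 15 epithelial but only 7 of 15 mesenchymal arrays. These are the leading probe sets, that is, for each gene the one with the highest mean. The second PIGR probe set passed the limit on 6 epithelial arrays and 1 mesenchymal array. The 2 other SLA-DRB1 probe sets were near background: one passed on 2 arrays, the other on 0 arrays and was listed at 0 on 14 of 30, and neither entered a test.

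**Figure D1:**
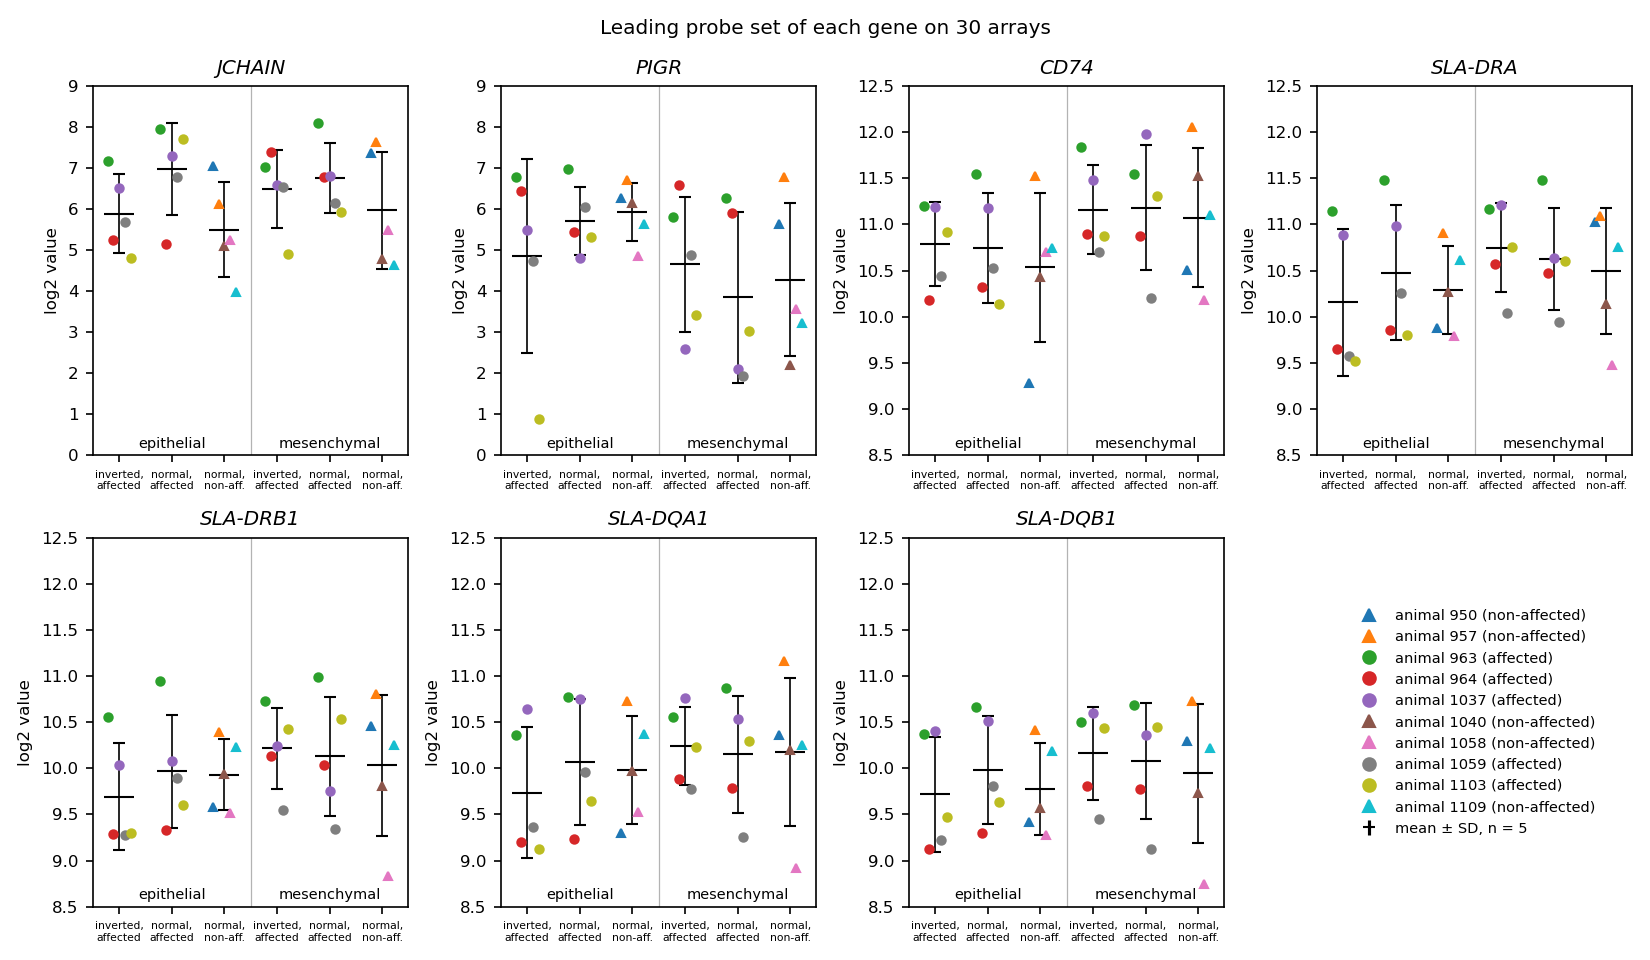
Log2 values of the leading probe set of each gene (y axis) in the 6 groups (x axis, epithelial tissue left of the line and mesenchymal tissue right of it). Points are animals, circles affected and triangles non-affected; black bars are the mean ± SD of 5 arrays. PIGR on the epithelial array of the inverted teat of animal 1103 lies at 0.88, and for every gene the values of the 6 groups overlap.

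PIGR was the only one of the 7 genes whose difference between epithelial and mesenchymal tissue of normal teats passed the test, with higher levels in epithelial tissue. Its values in epithelial tissue of the 10 normal teats had a lowest value of 4.8, a median of 5.85 and a highest value of 6.97, against 1.94, 3.40 and 6.78 in mesenchymal tissue. The epithelial arrays were all above the 30th percentile of their array, as were 4 of 10 mesenchymal arrays, and the groups overlap. On mesenchymal arrays alone this probe set would have missed the filter of at least 5 arrays. It thus entered the test through the tissue where it is higher, which limits what its call can show. Epithelial tissue averaged 5.82 ± 0.74 and mesenchymal tissue 4.07 ± 1.88 (SD, n = 10 each), a log2 difference of 1.76 ± 0.60 (SE, limma, adjusted p = 0.0292), with 8 of 10 animals higher in epithelial tissue. The second PIGR probe set averaged 4.67 ± 0.34 in epithelial and 3.82 ± 1.05 in mesenchymal tissue, a difference of 0.86 ± 0.32 (SE, limma, adjusted p = 0.0453). It was above the 30th percentile on only 4 of 10 epithelial arrays and 1 of 10 mesenchymal arrays. It thus entered the test mainly through the tissue where it is higher, and its call is not separate support. In inverted teats it entered no test. In this comparison 33.5% of all tested probe sets were called in either direction, and 2 of the 8 member probe sets tested were called, both of PIGR, so the share of members called was not above the background. The median difference was -0.13 over these 8 probe sets and -0.06 over all tested.

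The PIGR difference was not spread evenly over the animals. In normal teats of animals 950, 957, 963 and 964 PIGR measured 6.26, 6.72, 6.97 and 5.44 in epithelial tissue, against 5.63, 6.78, 6.28 and 5.90 in mesenchymal tissue, so the tissues differed by at most 0.69. In the other 6 animals the mesenchymal values were 1.94 to 3.56, and the epithelial value was above them by 1.29 (animal 1058) to 4.12 (animal 1059). All of these mesenchymal values were below the 30th percentile of their array, the limit for low, so the sizes of these differences rest on low values. Animals 950, 957, 963 and 964 are those whose mesenchymal pieces carried luminal keratins at 9.15 to 10.65, against 2.38 to 7.28 in the other 6. They are also the animals in which CSN2, the milk protein beta-casein, measured 12.94 to 16.17 on every array, against 4.0 to 6.39 in the other 6. The part of keratin-bearing cells in the PIGR difference was not tested. The call did not hold without animal 1040 (difference 1.51, adjusted p = 0.0744), 1059 (1.49, 0.0839), 1103 (1.70, 0.0626) or 1109 (1.68, 0.064), each by limma. These fits held no term for the animal, which both pieces of a teat share. With the animal as a block and all animals kept, the adjusted p was lower, as given under the dependence on processing.

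**Figure D2:**
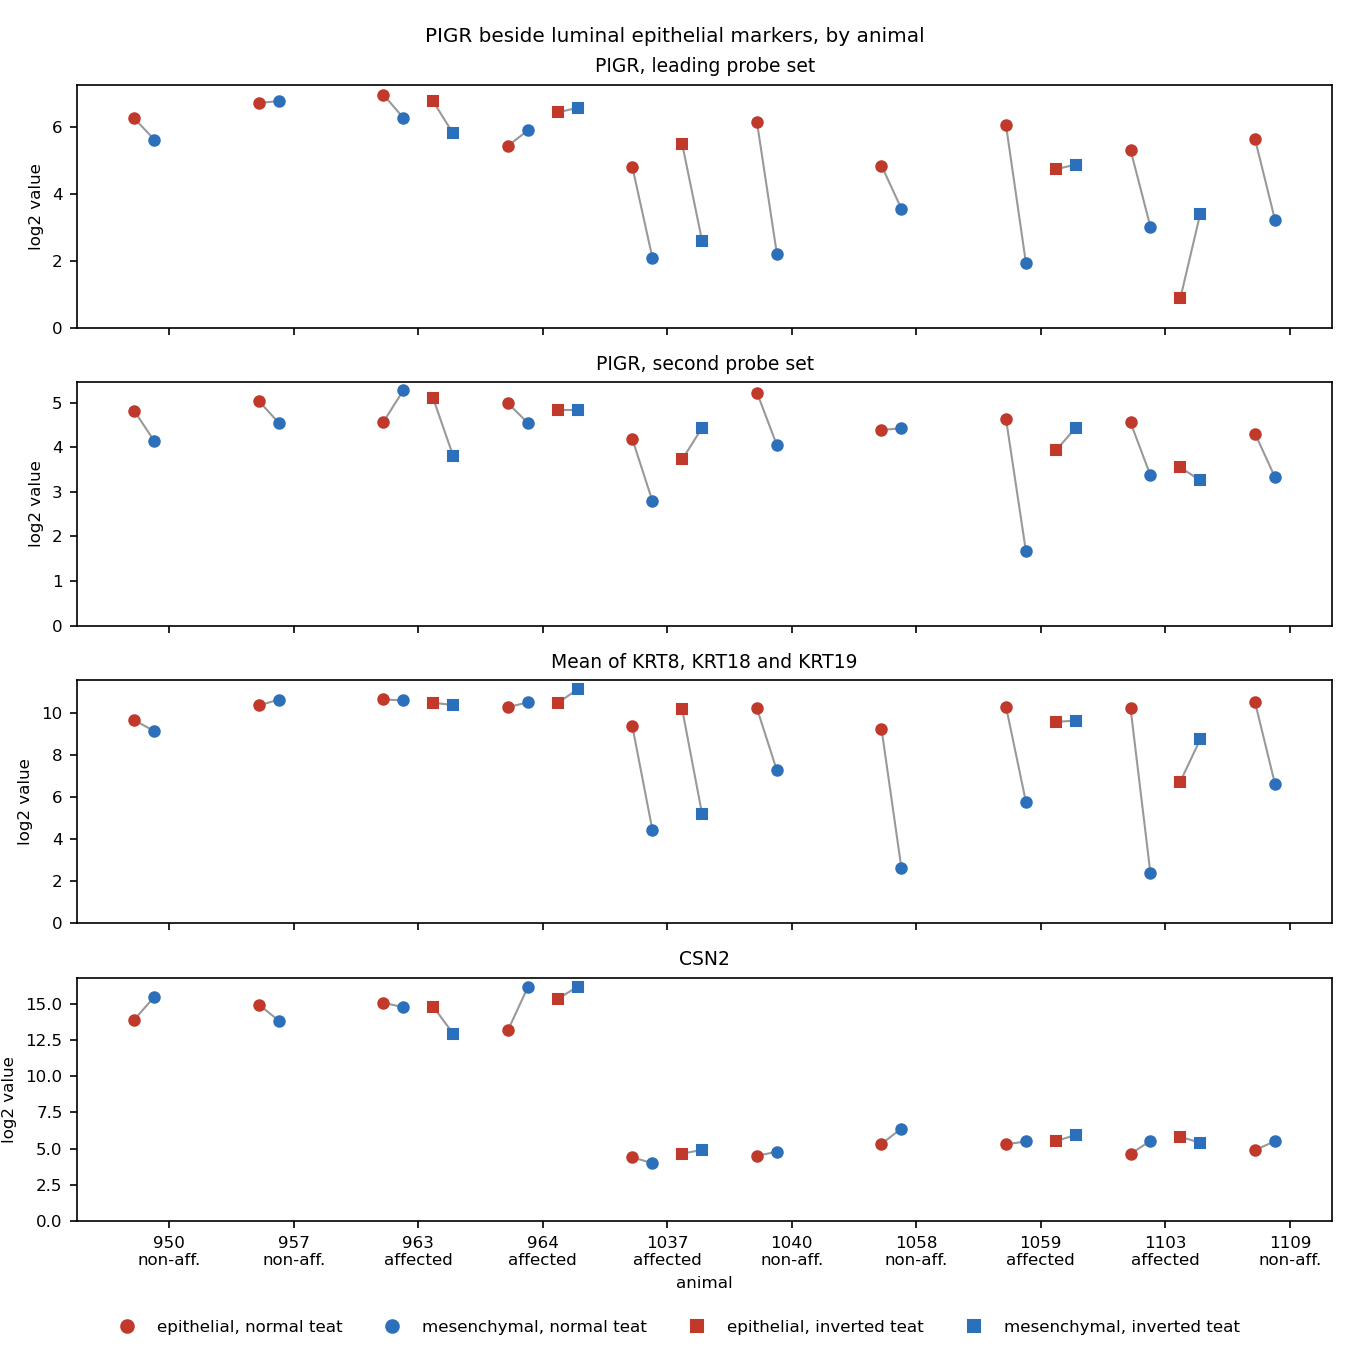
Log2 values (y axes) of both PIGR probe sets, of the mean of 3 luminal keratins and of CSN2 in each animal (x axis), red for epithelial and blue for mesenchymal tissue, circles for normal and squares for inverted teats, with lines joining the pieces of a teat. In normal teats the leading PIGR probe set differs between tissues by at most 0.69 in animals 950, 957, 963 and 964. In the other 6 it differs by 1.29 to 4.12, with mesenchymal values below the 30th percentile of their array. The inverted teats of animals 1059 (4.74 epithelial and 4.88 mesenchymal) and 1103 (0.88 and 3.41) do not show that difference.

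In inverted teats PIGR showed no tissue difference that passed the test. It measured 6.77, 6.44, 5.49, 4.74 and 0.88 in epithelial tissue of animals 963, 964, 1037, 1059 and 1103, against 5.81, 6.58, 2.59, 4.88 and 3.41 in mesenchymal tissue. Epithelial values were higher in 2 of 5 animals, and the value of 1103 lies below every other. In the inverted teat of 1103 the mean of the luminal keratins was also lower in the epithelial piece, at 6.75 against 8.76. The PIGR difference was 0.21 ± 1.1 (SE, limma, adjusted p = 0.914), and it was 1.20 ± 0.78 (adjusted p = 0.334) without the epithelial array of animal 1103. In this comparison 12.4% of all tested probe sets and 0 of the 7 member probe sets tested were called.

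JCHAIN did not differ between the tissues beyond its spread. In normal teats its median was 6.46 in epithelial and 6.46 in mesenchymal tissue, with ranges of 3.97 to 7.94 and 4.63 to 8.11. The difference was -0.13 ± 0.47 (SE, limma, adjusted p = 0.859), with 4 of 10 animals higher in epithelial tissue, and in inverted teats it was -0.61 ± 0.52 (adjusted p = 0.456). The mean over an animal's arrays ran from 4.30 in animal 1109 to 7.56 in animal 963 (SD 1.04), and the median range within an animal was 0.94.

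The class II chains lay at similar levels in both tissues. SLA-DRA, the nearly invariant alpha chain of the DR molecule, had a lowest value of 9.79, a median of 10.26 and a highest value of 11.48 in epithelial tissue of normal teats, against 9.48, 10.62 and 11.48 in mesenchymal tissue, a difference of -0.18 ± 0.25 (SE, limma, adjusted p = 0.611). Differences of SLA-DRB1, its polymorphic beta chain, and of SLA-DQA1 and SLA-DQB1, the chains of the DQ molecule, were -0.13 ± 0.25, -0.14 ± 0.28 and -0.13 ± 0.25 (adjusted p 0.718 to 0.73). The sign depended on scaling: with quantile normalization these 4 differences were 0.19 to 0.21, and none was called either way. In inverted teats the 4 differences were -0.59 ± 0.37, -0.52 ± 0.30, -0.51 ± 0.33 and -0.44 ± 0.32 for SLA-DRA, SLA-DRB1, SLA-DQA1 and SLA-DQB1 (adjusted p 0.254 to 0.371), lower in epithelial tissue of 5 of 5 animals for each chain. Quantile normalization reduced them to between -0.13 and -0.04. Over all tested probe sets 39.4% of the differences in inverted teats were positive, with a median of -0.12. Animal 1103, where the luminal keratins of the inverted teat go against its tissue labels, is among the 5. In normal teats 25 of 40 such pairs, 4 chains in 10 animals, were lower in epithelial tissue.

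CD74 was the class II gene whose tissue call depended on pairing. Its lowest, median and highest values in normal teats were 9.28, 10.61 and 11.55 in epithelial tissue, against 10.18, 11.20 and 12.06 in mesenchymal tissue. The epithelial value was lower in 7 of 10 animals, and the groups overlap. The difference was -0.49 ± 0.29 (SE, limma, adjusted p = 0.201). With the animal as a fixed replicate block it was -0.49 ± 0.18 (adjusted p = 0.0432), with the animal as a random block the adjusted p was 0.0897, and with quantile normalization the difference was -0.07. In inverted teats it was -0.37 ± 0.27 (adjusted p = 0.381) and 0.12 with quantile normalization.

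**Figure D3:**
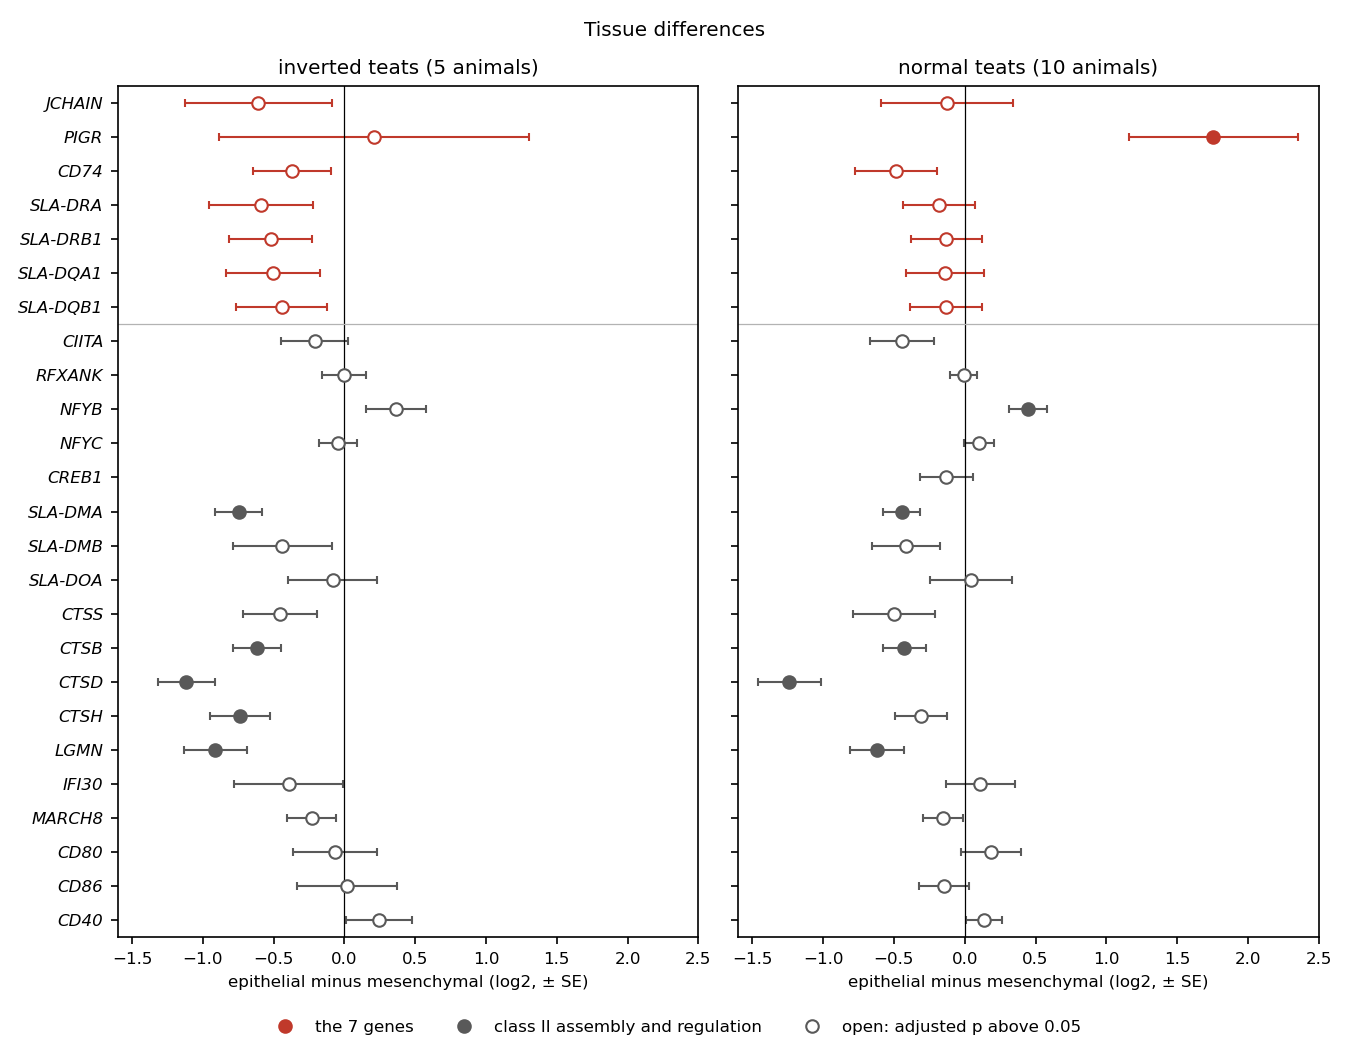
Epithelial minus mesenchymal log2 difference ± SE (x axis) of the leading probe set of the 7 genes (red) and of 18 genes of class II assembly and regulation (grey), in inverted teats (left) and normal teats (right). Filled points passed limma's adjusted p of 0.05. PIGR at 1.76 in normal teats is the only filled red point, and CTSD has the lowest value in both panels.

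Other genes of class II assembly and regulation were followed as a list. In normal teats 1 of its 18 tested genes was higher and 4 were lower in epithelial tissue, with a median difference of -0.15. Over all tested probe sets 33.5% were called and the median was -0.06, so the list's share of calls was not above the background. CTSD, an endosomal aspartic protease, averaged 8.34 ± 0.30 in epithelial and 9.58 ± 0.66 in mesenchymal tissue (SD, n = 10 each), a difference of -1.24 ± 0.22 (SE, limma, adjusted p = 0.000419). LGMN, the asparaginyl endopeptidase that takes part in cutting the invariant chain, differed by -0.62 ± 0.19 (adjusted p = 0.0186), and SLA-DMA, a chain of the DM molecule that exchanges class II peptides, by -0.44 ± 0.13 (adjusted p = 0.0141). NFYB, a subunit of the NF-Y factor that binds class II promoters, was higher by 0.45 ± 0.14 (adjusted p = 0.0175), and its adjusted p was 0.0507 without animal 1059. With quantile normalization 1 gene was lower and 1 higher, and LGMN (-0.28) and SLA-DMA (-0.26) no longer passed. A second SLA-DMA probe set gave -0.20 (adjusted p = 0.552). CIITA, the coactivator that switches class II genes on, differed by -0.44 ± 0.23 (adjusted p = 0.138).

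In inverted teats 5 of 17 tested genes of this list were lower in epithelial tissue and 0 were higher, with a median of -0.23. Over all tested probe sets 12.4% were called, 1970 lower and 145 higher, with a median of -0.12, so the lower direction was also that of the array. CTSD differed by -1.12 ± 0.20, LGMN by -0.91 ± 0.22, SLA-DMA by -0.75 ± 0.17 and the cysteine protease CTSB by -0.62 ± 0.17 (SE, limma, adjusted p 0.0162 to 0.0374). These calls depended on the animals and the scaling: 0 genes were called with quantile normalization or without animal 1037, 1059 or 1103, 1 with equal array medians, 2 with no filter or without animal 964, and 3 without animal 963 or without the epithelial array of animal 1103.

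Of 7 genes on the way from interferon gamma to class II, JAK2, a receptor-bound kinase, was higher in epithelial tissue of normal teats, by 0.91 ± 0.21 (SE, limma, adjusted p = 0.00267), and the other 6, IFNG itself among them at -0.04, were not called. In inverted teats JAK2 differed by 0.89 ± 0.22 (adjusted p = 0.0266), which was lost with quantile normalization, with no filter and without animal 963, 1037, 1059 or 1103. A second JAK2 probe set gave 0.90 in normal teats (limma, adjusted p = 0.00501) and 0.69 in inverted teats (adjusted p = 0.112). Of 15 genes of MHC class I presentation 0 were called by limma in either teat type, with medians of -0.31 in inverted and -0.13 in normal teats. Both lists stand beside 33.5% of all tested probe sets called in normal teats (median -0.058) and 12.4% in inverted teats (median -0.119). In normal teats 1 class I gene was called lower with the animal as a block, and 1 was called higher with quantile normalization.

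Among 16 tested genes of immunoglobulin assembly, homing and transport, 2 were higher and 5 lower in epithelial tissue of normal teats, with a median of -0.13. The background was 33.5% called, 3762 lower and 2360 higher. The number of higher genes was 1 without animal 963, 1040, 1058, 1059, 1103 or 1109. FCGRT, the heavy chain of the neonatal Fc receptor that carries IgG, averaged 9.81 ± 0.25 in epithelial and 10.45 ± 0.41 in mesenchymal tissue (SD, n = 10 each), a difference of -0.64 ± 0.16 (SE, limma, adjusted p = 0.00418), and of -0.27 (adjusted p = 0.157) with quantile normalization. The prolactin-activated transcription factors STAT5B and STAT5A differed by -0.93 ± 0.16 and -0.52 ± 0.13, and MAL2, a membrane protein of transcytosis that takes part in moving the polymeric immunoglobulin receptor, by -1.01 ± 0.20 (adjusted p = 0.000804). A second MAL2 probe set gave 0.28 (adjusted p = 0.251). Other STAT5A probe sets gave -0.455 (adjusted p = 0.0306) and 0.05 (adjusted p = 0.808), and a second STAT5B probe set -0.50 (adjusted p = 0.00118). CCL28, a chemokine that draws IgA plasma cells into the mammary gland, had 1.96 ± 0.91 (adjusted p = 0.102). Its difference in inverted teats was 0.004 ± 1.44 (adjusted p = 0.999). In inverted teats 1 gene was higher and 3 were lower of 15 tested: CCR9, a homing receptor of gut lymphocytes, at 0.66 ± 0.19, MAL2 at -1.67 ± 0.47, FCGRT at -0.74 ± 0.16 and STAT5B at -0.86 ± 0.16 (adjusted p 0.0162 to 0.045). There the second MAL2 probe set gave 0.57 (adjusted p = 0.15) and the second STAT5B probe set -0.32 (adjusted p = 0.242). Over all tested probe sets 12.4% were called. On this list 0 genes were called with quantile normalization or without animal 1037, 1059 or 1103, and the higher call was also lost without 963 or 964 and with the animal as a fixed block.

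Markers of immune cells were set beside these genes. Over all probe sets tested between the tissues 33.5% were called in normal and 12.4% in inverted teats. Of 13 tested macrophage and dendritic cell genes 0 were called by limma between the tissues, with medians of -0.56 in inverted and -0.29 in normal teats. With the animal as a random block 3 were called lower in epithelial tissue of normal teats, where that block called 8124 of all 18286 tested probe sets. The summed log2 level of the 14 measured genes of that list lay between 84.4 and 101.7 in epithelial and between 87.2 and 112.7 in mesenchymal tissue, and none was listed at 0. Only 7 of 20 plasma and B cell genes had a probe set and 3 were tested, of which SDC1, also a surface proteoglycan of epithelia, was lower in epithelial tissue of normal teats (-0.80 ± 0.16, adjusted p = 0.000897). The other 2 were positive there and not called, and the median of the 3 was 0.125. In inverted teats 0 of 3 were positive and 0 were called, with a median of -0.24. The summed level of the 7 plasma and B cell genes lay between 37.0 and 40.4 in epithelial and between 37.7 and 42.1 in mesenchymal tissue. Of 12 tested T and NK cell genes 1 was called in normal teats. CD247, the zeta chain of the T cell receptor complex, was lower in epithelial tissue (-1.54 ± 0.28, limma, adjusted p = 0.000428). The median of the 12 was -0.09, with 4 positive. The part of immune cell numbers in the class II and JCHAIN values was not tested.

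The comparisons of teats gave no call. For inverted against normal teats, affected against non-affected animals and inverted teats against non-affected animals, limma called 0 probe sets (0.0% of those tested) in each tissue, and the same held for both differences between tissues. An unadjusted p under 0.05 was reached by 303, 420 and 484 probe sets in epithelial tissue (1.72%, 2.38% and 2.74% of those tested). In mesenchymal tissue it was reached by 78, 201 and 219 (0.437%, 1.13% and 1.23%), and for the differences between tissues by 171 and 121 (0.91% and 0.644%). Each of these shares is below the 0.05 expected with no difference. These fits held no term for the animal, which inverted and normal teats share, so 0.05 is not the expected share for that comparison. With the animal as a random block, 992 of 17661 epithelial and 535 of 17839 mesenchymal probe sets reached that p for inverted against normal teats. The epithelial share was then above 0.05 and the mesenchymal share below it, and 0 were called. Of the member probe sets 8 were tested in epithelial and 7 in mesenchymal tissue, and JCHAIN, in epithelial tissue of affected against non-affected animals, was the one with an unadjusted p under 0.05.

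JCHAIN was highest on average in epithelial tissue of normal teats from affected animals. There it measured 7.94, 5.15, 7.30, 6.79 and 7.70 in animals 963, 964, 1037, 1059 and 1103, against 7.04, 6.12, 5.11, 5.25 and 3.97 in the non-affected animals 950, 957, 1040, 1058 and 1109. Affected animal 964 is low and non-affected animal 950 is high, so the groups overlap. The difference was 1.48 ± 0.60 (SE, limma, unadjusted p = 0.0268, adjusted p = 0.999), and 1.1 to 1.93 when each animal was left out. In mesenchymal tissue the affected animals measured 8.11, 6.78, 6.80, 6.14 and 5.92 and the non-affected ones 7.36, 7.63, 4.78, 5.48 and 4.63, a difference of 0.78 ± 0.63 (adjusted p = 1.0). The difference between the tissues in this contrast was 0.70 ± 0.92 (SE, adjusted p = 1.0).

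Inverted teats of the same affected animals had JCHAIN at 7.18, 5.24, 6.51, 5.68 and 4.81 in epithelial tissue, lower than in the normal teat in 4 of 5 animals. The drop was 2.89 in animal 1103 and at most 1.11 in the others. The difference was -1.09 ± 0.60 (SE, limma, unadjusted p = 0.0906, adjusted p = 1.0), and -0.82 ± 0.62 without the epithelial inverted array of animal 1103. In mesenchymal tissue inverted teats measured 7.02, 7.40, 6.59, 6.53 and 4.91, a difference from normal teats of -0.26 ± 0.63. Against non-affected animals inverted teats differed by 0.39 ± 0.60 in epithelial and by 0.52 ± 0.63 in mesenchymal tissue. With 1 animal left out these ran from 0.005 (without 1109) to 0.77 (without 950) and from 0.18 (without 1109) to 0.93 (without 957). The 3 tested plasma and B cell genes had medians of -0.12 for inverted against normal teats and 0.15 for affected against non-affected animals in epithelial tissue, and 0 were called.

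PIGR likewise gave no teat difference beyond its spread. In epithelial tissue it averaged 4.86 ± 2.37 in inverted teats, 5.72 ± 0.83 in normal teats of affected animals and 5.92 ± 0.71 in non-affected animals (SD, n = 5 each). Inverted teats differed from normal teats by -0.86 ± 0.84 (SE, limma, adjusted p = 1.0) and by 0.14 ± 0.48 without the epithelial inverted array of animal 1103, so the sign rested on that array. Affected against non-affected animals differed by -0.20 ± 0.84, and inverted teats against non-affected animals by -1.06 ± 0.84, or -0.07 ± 0.48 without that array. In mesenchymal tissue the averages were 4.65 ± 1.65, 3.85 ± 2.09 and 4.28 ± 1.87 (SD, n = 5 each), and the differences 0.81, -0.43 and 0.37 had an SE of 1.06 each. The teat difference between tissues was -1.66 ± 1.43 and the status difference between tissues 0.23 ± 1.43.

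The 4 class II chains gave small teat differences. In epithelial tissue every chain was lower in the inverted teat than in the normal teat of the same affected animal, in 20 of 20 pairs, by 0.03 to 0.68. SLA-DRA measured 11.15, 9.65, 10.89, 9.57 and 9.52 in the inverted teats of animals 963, 964, 1037, 1059 and 1103, against 11.48, 9.86, 10.98, 10.26 and 9.80 in their normal teats. The 20 pairs are not independent, since the chains vary together. The differences were -0.34 for SLA-DQA1, -0.32 for SLA-DRA and -0.27 for SLA-DRB1 and SLA-DQB1, and none passed (limma, adjusted p = 1.0). With the animal as a fixed replicate block the unadjusted p was 0.0308 for SLA-DRA and 0.0309 for SLA-DQA1, and the adjusted p was 0.901 for each chain. CD74 differed by 0.04 ± 0.37. Macrophage and dendritic cell genes had a median of -0.30 in this comparison, with 3 of 13 positive, against 50.3% of all tested probe sets. Their summed level had a median of 86.5 in inverted and 91.7 in normal teats of affected animals. Their part in the chain values was not tested.

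In mesenchymal tissue 7 of 20 pairs of the chains were lower in the inverted teat, and the median over the 5 class II genes was 0.09, or 0.01 with quantile normalization. For affected against non-affected animals that median was 0.19 in epithelial and 0.11 in mesenchymal tissue, and for inverted teats against non-affected animals it was -0.13 in epithelial tissue, or 0.001 without the epithelial inverted array of animal 1103, and 0.18 in mesenchymal tissue. The difference between tissues had a median of -0.36 for teats and 0.07 for status. With 1 animal left out the sign of several of these medians turned. For affected against non-affected animals they ran from -0.06 (without 963) to 0.34 in epithelial and from -0.17 (without 1058) to 0.30 in mesenchymal tissue. For inverted teats against non-affected animals they ran from -0.38 to 0.02 (without 957) in epithelial and from -0.12 (without 1058) to 0.38 in mesenchymal tissue, and for the status difference between tissues from -0.10 (without 950) to 0.25. In each of these comparisons 0 class II genes were called, and no gene of the pathway lists was called either. Macrophage and dendritic cell genes were positive for 13 of 13 in epithelial and 11 of 13 in mesenchymal tissue of affected against non-affected animals, with medians of 0.20 and 0.40 and 0 calls. Over all tested probe sets 45.5% and 47.4% were positive. These genes are measured on the same animals and can vary together, so the 13 are not independent.

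When the 6 groups were ordered by mean level, no gap between neighbours in the order exceeded the larger of their 2 SDs, for each of the 7 genes. Groups farther apart in the order were not covered by this. Neighbours in such an order are the closest groups, so the outcome was likely in advance and says little about differences between groups. For PIGR the SD of 2.37 in epithelial tissue of inverted teats includes the low array of animal 1103. CD74 was highest in the 3 mesenchymal groups (11.07 to 11.18) and lower in the 3 epithelial groups (10.53 to 10.79). PIGR had the reverse order, with 4.86 to 5.92 in the epithelial and 3.85 to 4.65 in the mesenchymal groups.

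What the class II genes shared was their variation from array to array. Over the 30 arrays the 4 chains correlated pairwise with Pearson r of 0.88 to 0.95, and with 0.87 to 0.96 after the group means were removed. CD74 correlated with the chains with r of 0.67 to 0.81. JCHAIN correlated with the 5 class II genes with r of 0.24 to 0.50 and PIGR with r of -0.07 to 0.38, and JCHAIN with PIGR with r of 0.45. These values are descriptions: arrays share animals and scaling, so the 30 points are not independent. The values for PIGR also pool the separate clusters of its mesenchymal levels. SLA-DRB1 and the DQ chains also belong to a polymorphic family with similar members, so cross-hybridisation between probe sets cannot be told apart from covariation.

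**Figure D4:**
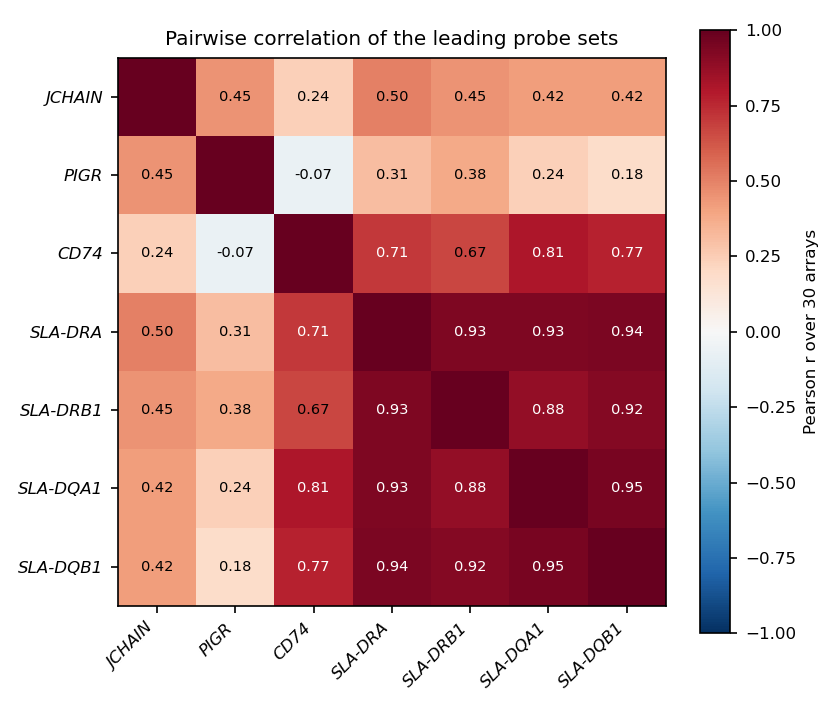
Pearson r over 30 arrays between the leading probe sets of the 7 genes (colour scale from -1 to 1, values printed in the cells). The 4 SLA chains form a block at 0.88 to 0.95, CD74 joins it at 0.67 to 0.81, and JCHAIN and PIGR lie outside it.

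Levels also varied between animals. SLA-DRA averaged over an animal's arrays ran from 9.64 in animal 1058 to 11.32 in animal 963 (SD 0.53), and the median range within an animal was 0.45. These are unlike measures of spread, and the share of variation due to the animal was not tested. SLA-DRB1, SLA-DQA1 and SLA-DQB1 were lowest in animal 1058 as well, at 9.18, 9.23 and 9.01. They were highest in animal 963 (SLA-DRB1, 10.81) or 957 (SLA-DQA1, 10.94, and SLA-DQB1, 10.57), the 2 German Landrace animals, 1 affected and 1 not. CD74 ran from 9.90 in animal 950 to 11.79 in animal 957. With 2 animals of that breed, breed and animal cannot be told apart.

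Epithelial and mesenchymal levels of an animal were compared over the 10 normal teats. Pearson r was 0.67 for JCHAIN, 0.64 for SLA-DQB1, 0.62 for SLA-DQA1, 0.61 for SLA-DRA, 0.59 for CD74 and 0.53 for SLA-DRB1 (two-sided permutation p of 0.0367 to 0.104), and Spearman's rho was 0.50 to 0.68 (permutation p of 0.0341 to 0.142). After Benjamini-Hochberg adjustment over the 7 genes compared none passed, with adjusted p of 0.0978 to 0.104 for Pearson's r and 0.0898 to 0.142 for Spearman's rho. Without the 2 animals farthest from the median, r was 0.36 to 0.55 for these genes, and within the 6 Large White x German Landrace animals it was -0.11 to 0.65. Over all 18286 tested probe sets the median r was 0.34 with quartiles of 0.10 and 0.55, and 12.0% to 28.0% of them had an r at least as high as these genes. Mesenchymal PIGR values fell into separate clusters, so its relation was not read from these 10 animals.

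**Figure D5:**
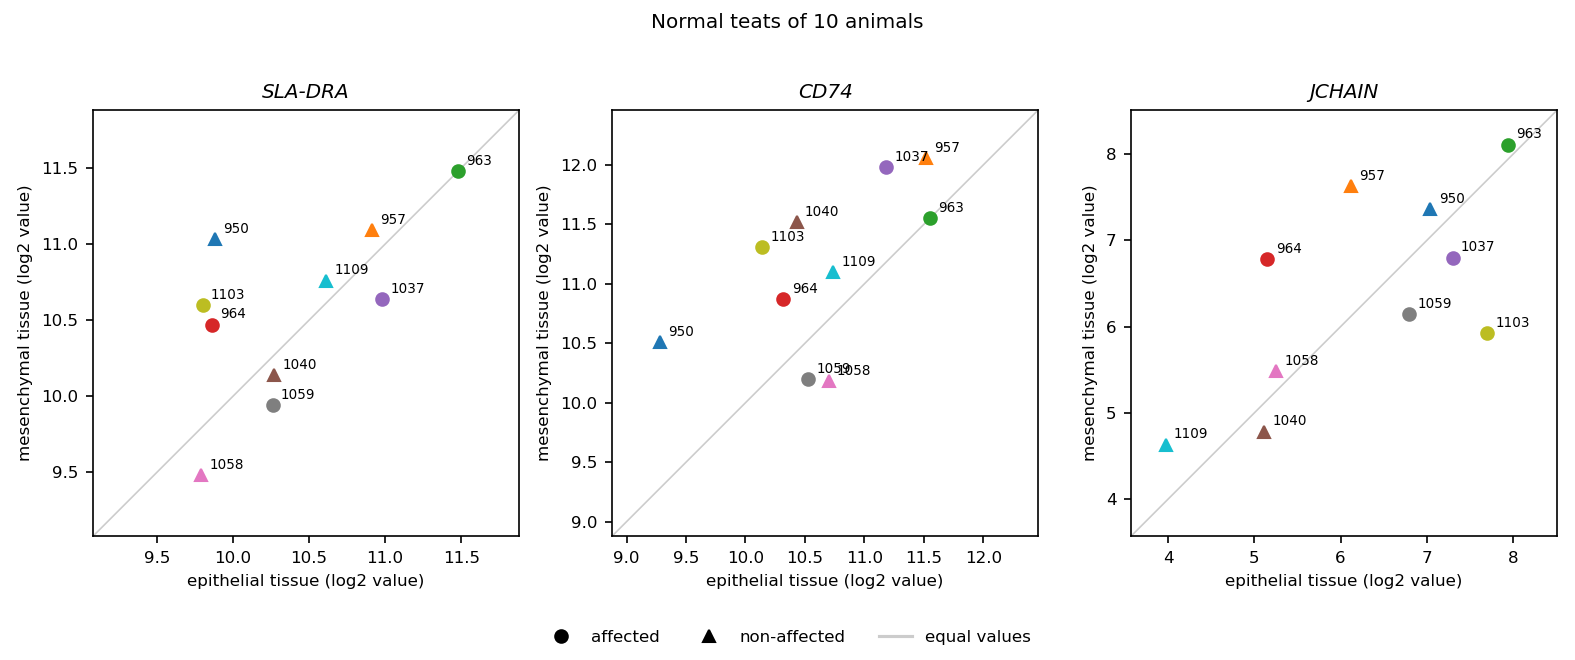
Log2 value in epithelial tissue (x axis) and in mesenchymal tissue (y axis) of the normal teat of each of 10 animals, for SLA-DRA, CD74 and JCHAIN, with circles for affected and triangles for non-affected animals and a grey line of equal values. Animal 963 is at or near the top of each panel, and animal 1058 is lowest for SLA-DRA in both tissues.

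The genes whose leading probe set was most like each member were sought among 6223 genes by Pearson r over the 30 arrays. For PIGR, whose mesenchymal values fall into separate clusters, these were FCGR2B (0.95), CLDN3 (0.93), a tight junction claudin of epithelia, and SHROOM2 (0.93). For JCHAIN they were LOC100152327 (0.78), LOC396781 (0.75), which the RefSeq table lists with the synonym IGHG, and the sulfatase SULF2 (0.70). For CD74 they were TAPBP (0.87), the tapasin of class I peptide loading, UBAP2L (0.85) and SERPING1 (0.84), the C1 inhibitor. SLA-DRA, SLA-DQA1 and SLA-DQB1 shared the same 3 genes: FCGR3A (0.91 to 0.92), an Fc receptor of macrophages and natural killer cells, SLA-DMB (0.89 to 0.91), the beta chain of the DM molecule, and LOC106504372 (0.89 to 0.94). SLA-DRB1 was most like LOC106504372 (0.99), a gene with the synonym SLA-DRB whose signal on the array cannot be separated from its own, then SRGN and FCGR3A (0.87 each).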

How the data were processed

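Log2 probe set values were used as deposited by the authors. The submitters' processing notes list GCOS 1.1.1 and PLIER but not what each did. Their base is taken as 2, and normalization between arrays is not given in the sources used here. Of 24123 probe sets, 10099 had 1 gene symbol, 198 several and 13826 none here; symbols were updated through Entrez IDs (9989 found in RefSeq, Sscrofa11.1, names only).

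Models were fitted across probe sets by lmFit, contrasts.fit and eBayes (limma 3.58.1, R 4.3.3) with Benjamini-Hochberg adjustment over all tested probe sets and a threshold of 0.05. Tested probe sets exceeded their array's 30th percentile on at least 5 arrays of the fit; 124 control probe sets were left out. Normal teats (20 arrays, status as covariate), inverted teats (10 arrays) and each tissue (15 arrays) were fitted apart, and differences between tissues over all 30. The fits were tested on simulated data.

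The leading probe set of a gene is that of highest mean over the arrays. From each list at most the 4 smallest p of each tissue comparison that passed are named; likeness names 3 genes. CIITA, IFNG and CCL28 fall outside this rule and were picked after their values were seen. Keratinocyte (2 of 6 higher in epithelial tissue of normal teats), endothelial (0 of 9) and smooth muscle (2 of 7 lower) lists served as further checks. Members and lists were chosen with earlier results of these data known.

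Animal numbers pair arrays of the same pig. After removal of group means, the correlation between both teats of an animal was 0.25 to 0.56 (epithelial pieces) or 0.15 to 0.68 (mesenchymal pieces), and that between its tissues -0.03 to 0.70. Arrays of one group are different animals. Alternatives were the animal as a block, quantile normalization, equal array medians, other filters, array weights, all probe sets averaged, and animals left out. Correlations used 100000 permutations (Python 3.11.15). Array number limits precision.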

Additional observations from a re-analysis of the deposited data

Results flagged for a closer look

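A total of 60 sets of 5 arrays (10 probe sets in 6 groups) were searched for an array far from the other 4 by Dixon's criterion, which chance alone meets in about 1 in 20, and 5 were found. All 5 belong to the SLA-DRB1 probe sets near background that entered no test. In the first of these, 1 value lay low in each of 3 groups: 2.07 in epithelial tissue of the normal teat of affected animal 1059 (the others 3.67 to 4.32), 2.40 in epithelial tissue of non-affected animal 957 (the others 3.81 to 4.03), and 2.78 in mesenchymal tissue of the normal teat of affected animal 963 (the others 4.29 to 4.57). In the second, which was listed at 0 on 14 arrays, 1 value lay high in each of 2 groups: 3.41 in epithelial tissue of the normal teat of affected animal 964 (the others at 0) and 2.24 in mesenchymal tissue of the inverted teat of animal 1103 (the others 0 to 0.44). The leading SLA-DRB1 probe set had no such array.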

How the results depend on the processing

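The count of tissue calls in inverted teats, 2115, was the least stable: it was 3683 with a random replicate block, 2 with quantile normalization, 593 with equal array medians, 1090 with no filter, 1350 without the epithelial inverted array of animal 1103, and 1 (without animal 1037, 1059 or 1103) to 1490 (without 964) with 1 animal left out. In normal teats 6122 probe sets were called, 2360 higher and 3762 lower, against 3484 higher and 2888 lower with quantile normalization, which moved the median difference of all probe sets by 0.13 in inverted and 0.07 in normal teats. No teat comparison gained a call, except 1 for affected against non-affected animals in mesenchymal tissue without animal 957 (0 to 1). With quantile normalization the sign turned for SLA-DRA (0.19), SLA-DRB1 (0.21), SLA-DQA1 (0.21) and SLA-DQB1 (0.19) in normal teats and for CD74 (0.12) in inverted teats. PIGR turned to 0.14 for inverted against normal epithelium without the epithelial inverted array of 1103, and with array weights to 0.31 for affected against non-affected mesenchyme and -0.41 for the difference of that contrast between tissues. With 1 animal left out, the JCHAIN tissue difference in normal teats ran from -0.34 to 0.04. PIGR ran from -0.46 to 0.89 for the tissue difference in inverted teats, from -1.32 to 0.038 for inverted against normal epithelium, from -0.52 to 0.026 and from -1.04 to 0.19 for affected against non-affected epithelium and mesenchyme, from -0.14 to 0.997 for inverted teats against non-affected mesenchyme, and from -0.33 to 0.81 for the status difference between tissues. The replicate block by animal (paired arrays) lowered the PIGR adjusted p in normal teats to 0.00681 as a fixed and 0.00694 as a random block, and among the 7 genes it changed no call but that of CD74. The causes were not tested. Of the recomputed values of single genes, 415 kept their direction and their side of the threshold, 21 turned, 4 no longer passed and 1 newly passed.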

Other observations

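FCGR2B, by name an inhibitory Fc receptor of B cells and myeloid cells, followed PIGR over the 30 arrays with r of 0.95, and with 0.96 after the group means were removed, values that pool the separate clusters of mesenchymal PIGR. Its epithelial minus mesenchymal difference was -0.09 in inverted teats (limma, adjusted p = 0.961) and 1.55 in normal teats (adjusted p = 0.0595). FCGR3A, another Fc receptor, followed the class II chains instead and differed by -0.56 in inverted teats (limma, adjusted p = 0.285) and by -0.03 in normal teats (adjusted p = 0.941). Both names come from the platform annotation, and the probe sequences were not analysed here.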
